A study of Drosophila melanogaster with 2 samples.

Results

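The genes described here encode the subunits of Mediator and TFIID, the large complexes that stand between activators, core promoters and RNA polymerase II. They were chosen by symbol alone, as protein-coding genes named MED or Taf followed by a digit, together with Tbp, skd, kto, CycC and Cdk8. The rule found 45 genes among the 13945 protein-coding genes on the 6 chromosome arms, of which 29 belong to Mediator, 15 to TFIID, and 1, Taf12L, is a testis-type relative of Taf12. The data are chromatin immunoprecipitation sequencing of Crg-1, a forkhead-family transcription factor, in 1 group of adult Drosophila melanogaster with 2 biological replicates, numbered 2 and 3, which have separate biosample labels and share a donor label. Every fly carried Crg-1 fused to GFP at its C-terminal end. The material was whole animals of both sexes pooled, of an age the labels give as unknown. One label field gives the antibody as anti-GFP and another names Crg-1 itself. No source used here gives the promoter that drives the transgene, and no untagged or differently treated flies were analysed here, so the counts are read against those over all protein-coding genes.

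Mediator is built from head, middle and tail modules joined by the scaffold subunit MED14, and a kinase module of Cdk8, CycC, skd (Med13) and kto (Med12) binds it reversibly. TFIID consists of the TATA-binding protein Tbp and its associated factors, the TAFs, many of which pair through histone folds, and it is the first general factor to recognise a core promoter. In the fly testis a separate set of TAF relatives, nht, can, mia, sa and Taf12L (rye), is needed in spermatocytes for the genes of meiosis and sperm formation. These are related to Taf4, Taf5, Taf6, Taf8 and Taf12 in that order.

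The deposited lists hold regions with a summit, the position of highest signal, and a signal height in the authors' own units. A gene counted as having a promoter region when a summit lay at most 500 bp from any of its annotated starts. The thresholded set held 3707 regions, and the pooled list and each replicate list held 30000 candidates, ranked here from 1 for the highest signal. Read depth is unknown, since the lists carry no read totals.

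Some of the regions behind the counts are shown first. Each sequence is from the RefSeq Release 6 (dm6) genome, centred on the summit of a thresholded region and read in the direction of transcription of the member, and is shortened where it would enter an untranslated region by over 30 bases. Capitals mark the forkhead pattern RYAAAYA in MED27, MED7 and MED4, the DNA replication-related element TATCGATA in MED28, and the TATA pattern TATAAA in MED17, each on either strand. MED6, MED17 and MED30 had the highest signals of Mediator and Taf4, Taf11 and Taf2 among the 4 highest of TFIID, and the other members are shown for the pattern they hold. The MED30 and Taf4 windows held none of these patterns.
MED6, chr3R:9767812-9767840, minus strand: agcgctgccacctcgcgaagaacgtacac
MED17, chr3R:18188922-18189022, plus strand: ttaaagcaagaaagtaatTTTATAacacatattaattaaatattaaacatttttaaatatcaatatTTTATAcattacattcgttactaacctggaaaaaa
MED30, chr3L:654153-654253, minus strand: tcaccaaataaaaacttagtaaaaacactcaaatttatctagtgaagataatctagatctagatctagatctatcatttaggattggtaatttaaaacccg
MED27, chr3R:5654962-5655062, plus strand: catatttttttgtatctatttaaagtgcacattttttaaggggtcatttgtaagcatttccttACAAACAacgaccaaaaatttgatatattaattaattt
MED7, chr3R:10761050-10761150, minus strand: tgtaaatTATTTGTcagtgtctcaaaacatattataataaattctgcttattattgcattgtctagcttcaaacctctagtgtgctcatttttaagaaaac
MED28, chr3R:25476915-25477015, plus strand: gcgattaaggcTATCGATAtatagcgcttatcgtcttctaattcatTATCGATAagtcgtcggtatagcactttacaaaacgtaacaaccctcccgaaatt
MED4, chr3L:7250683-7250747, minus strand: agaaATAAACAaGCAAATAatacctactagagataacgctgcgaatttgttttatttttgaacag
Taf4, chr3L:16113635-16113735, plus strand: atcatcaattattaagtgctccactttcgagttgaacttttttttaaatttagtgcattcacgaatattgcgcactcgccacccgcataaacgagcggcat
Taf11, chr2L:9763389-9763417, minus strand: acactacaaaaataaaagtttatcgaata
Taf2, chr3L:9888737-9888791, minus strand: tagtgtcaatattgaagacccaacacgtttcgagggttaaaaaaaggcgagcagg

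The first question was how many of these genes carried a Crg-1 region at the promoter. Of the 45 genes 18 did, or 40% (95% Wilson interval 27 to 54.5), where 22.9% of all protein-coding genes did. In Mediator it was 11 of 29 genes, or 37.9% (22.7 to 56), and in TFIID 7 of 15, or 46.7% (24.8 to 69.9). The share in Mediator minus that in TFIID was -8.74 percentage points, with a 95% interval by Newcombe's method of -36.5 to 19.6, so a difference between the complexes of either sign was not detectable with this many genes. The testis-type TAF genes had 0 of 5, with a Wilson interval of 0 to 43.4. By the wider rule that a count of 0 allows 3, a share of up to 60% is possible. Intervals and limits cover counting error over genes only, and no test of the lists was made.

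The signals of these genes lay in the middle of the set. The strongest promoter region of the 18 genes had a median signal of 183.8, beside 182.0 for all 3195 protein-coding genes with a region. The median was 191.4 in Mediator, with a range of 122.4 to 497.6, and 176.2 in TFIID, with a range of 129.3 to 285.3. The top of the range was held by 4 Mediator genes, MED6, MED17, MED30 and MED27, all above the highest TFIID gene.

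**Figure D1:**
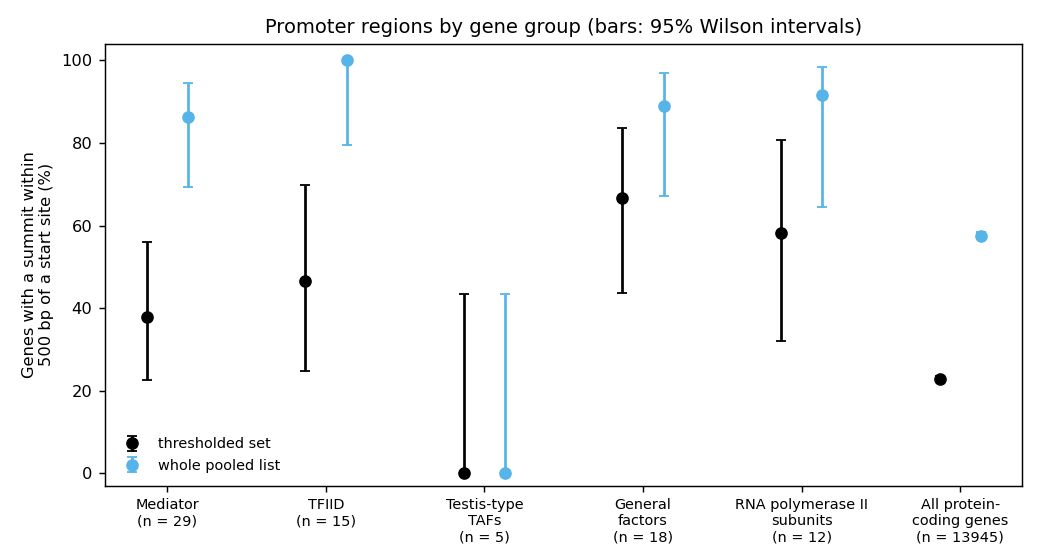
Share of genes in each group with a promoter summit in the thresholded set (black) and in the whole pooled list (blue), with 95% Wilson intervals. Mediator and TFIID stand at 37.9% and 46.7% in the thresholded set and the testis-type TAFs at 0% in both lists, beside 22.9% and 57.6% of all protein-coding genes.

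In the Mediator head, the module that contacts the polymerase, 5 of 9 genes had a thresholded region. The share over all protein-coding genes, 22.9%, applies to this and the other module counts, and with so few genes none of them was tested against it. MED6 had the highest signal of all members, 497.6, and its region ranked 108 in replicate 2 and 262 in replicate 3. MED6 has 5 annotated starts, and this summit lay 11 bp upstream of the most downstream one, which is not the canonical start, and 8 bp from the start of Naa80, an N-terminal acetyltransferase gene. A second and weaker MED6 region, with a signal of 141.6, lay 55 bp downstream of the canonical start. MED17, the central subunit of the head, had a signal of 481.3 and ranked 132 in replicate 2 and 202 in replicate 3. MED30, a subunit found in animals and not in yeast, had 424.9 and ranked 254 and 214. These 3 genes were high in both replicates, while the remaining pair lay near the end of the set. MED28 had 127.8 and ranked 2392 in replicate 2 but 5295 in replicate 3, and MED8 had 124.1 and ranked 2910 and 3853. The 4 other head genes had pooled summits far below the set, with ranks of 10321 for MED11, 12259 for MED22, 12432 for MED18 and 16018 for MED20. Of these MED22 had no summit in replicate 2.

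In the middle module 3 of 9 genes had a region, with lower signals. MED7, which in yeast forms a hinge with MED21, had 191.4 and ranked 1492 in replicate 2 and 1276 in replicate 3. MED31, a small subunit next to MED7, had 138.0 and ranked 3112 and 2036. MED4 had 122.4, the lowest of the 18 genes, and ranked 2935 and 2904. All 3 were among the 3707 top-ranked regions of each replicate. MED10 fell just outside the thresholded set, with a pooled signal of 107.8 and rank 3824, where the lowest signal in the set was 109.7. MED26, which in human cells links Mediator to elongation factors, had 100.1 and rank 4347. MED19 had a pooled signal of 89.9 and rank 5209, and it differed between the replicates, at rank 10368 in replicate 2 and 2816 in replicate 3. MED21 and MED1, a subunit contacted by nuclear receptors in mammals, were lower, at pooled ranks 13653 and 14972. MED9 had no promoter summit in any list.

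The tail receives activators, and 2 of its 6 genes had a region. MED27 had a signal of 359.6 and ranked 502 in replicate 2 and 225 in replicate 3. MED16 had 198.9 and ranked 1308 and 980, and its summit lay 13 bp upstream of the start. MED25, MED24 and MED23, the last a target of several activators in mammals, had pooled signals of 95.3 (rank 4697), 84.7 (rank 5736) and 83.4 (rank 5885), below the set. MED15, a tail subunit that activators contact directly in yeast, had no promoter summit in any list.

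In the kinase module, of the 4 genes skd alone had a thresholded region, with a signal of 158.6, and its summit lay 434 bp upstream of the skd start but 47 bp from that of Pdss2, a gene of coenzyme Q synthesis. CycC, the cyclin partner of Cdk8, had a pooled signal of 82.6, ranked 3109 in replicate 3 and only 14552 in replicate 2. Cdk8, the kinase itself, had 33.1 with pooled rank 25000 and no summit in replicate 2, and kto had none in any list. Among the top-ranked regions of replicate 3 the module had 2 of 4 genes, skd and CycC. The scaffold gene MED14 had a summit in replicate 3 alone, at rank 27696. With 1 to 9 genes a module, differences in count between modules were not tested.

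**Figure D2:**
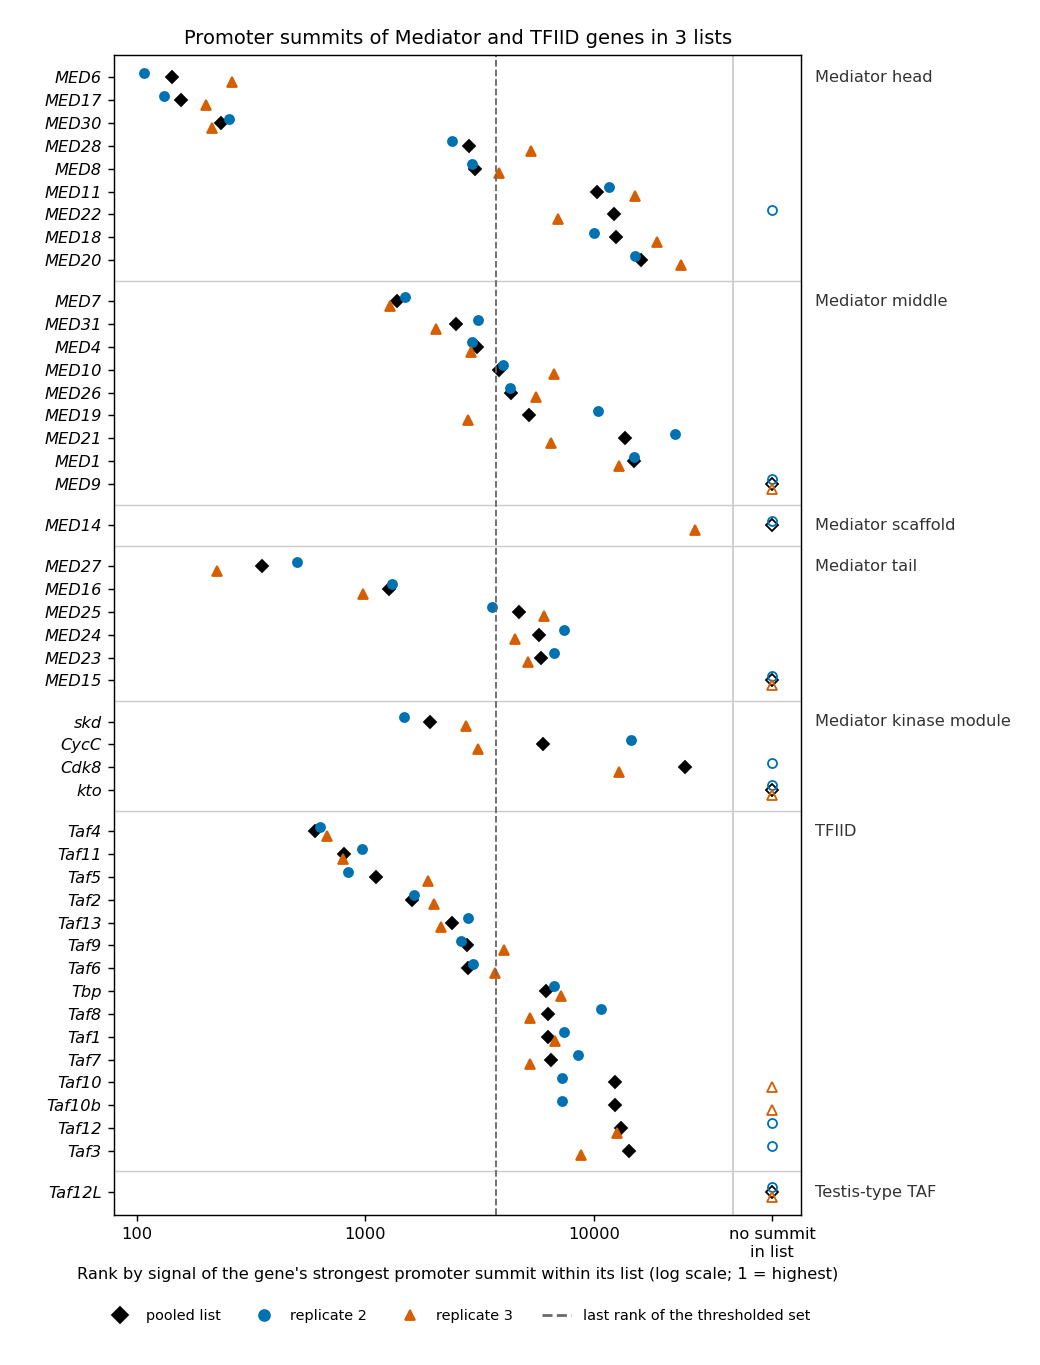
Rank of the strongest promoter summit of each gene in the pooled list (diamonds), replicate 2 (circles) and replicate 3 (triangles), on a log axis, grouped by module and complex; open symbols on the right mark genes with no promoter summit in that list, and the dashed line marks rank 3707. MED6, MED17, MED30 and MED27 lie between ranks 108 and 502 in all lists, and Cdk8 has the last pooled rank, 25000.

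In TFIID the regions followed no single part of the complex. Taf4, a coactivator subunit, had the highest signal, 285.3, and ranked 635 in replicate 2 and 677 in replicate 3. Its summit lay 105 bp upstream of the middle one of its 3 starts, inside the gene and away from the canonical start. Taf12, which pairs with Taf4 through the histone fold, had a pooled signal of 49.8 (rank 13145) and no summit in replicate 2. Taf11 had 248.6 and its histone-fold partner Taf13 had 140.4, and both were top-ranked in each replicate. Taf6 had 129.3 and its partner Taf9 had 129.5, near the end of the set. Taf9 ranked 2621 in replicate 2 and 4022 in replicate 3, outside the top-ranked regions of replicate 3. Taf5, the WD-repeat subunit, had 214.0 and ranked 839 and 1870. Taf2, which contacts the initiator element together with Taf1, had 176.2 and ranked 1628 and 2003.

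The other 8 TFIID genes each had a promoter summit in the pooled list but none in the thresholded set. Tbp had a pooled signal of 81.0 with rank 6166, and ranked 6641 in replicate 2 and 7128 in replicate 3. Taf8 and Taf1, the largest subunit, had 79.7 each, at ranks 6293 and 6298, and Taf7, which binds Taf1, had 78.2 at rank 6485. Taf10 and Taf10b start 45 bp apart on opposite strands and shared 1 pooled summit, with a signal of 51.8 and rank 12328, that was present in replicate 2 and absent from replicate 3. Taf3, on the 4th chromosome, had 47.3 at rank 14229 and was absent from replicate 2. The subunit that binds TATA DNA was thus outside the set in every list, at similar ranks.

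Of the 27 genes without a thresholded region, 22 had a weaker summit in the pooled list, with signals of 33.1 to 107.8 and a median of 67.9. In all, 40 of the 45 genes had a promoter summit in the pooled list, or 88.9% (76.5 to 95.2), where 57.6% of all protein-coding genes did. Mediator had 25 of 29 and TFIID 15 of 15. In the whole list of replicate 2 the count was 36 of 45, beside 57.8% of all genes, and in that of replicate 3 it was 39 of 45, beside 56.1%. Since these lists reach down to low signal, they hold background as well as binding. A protein-coding start on the opposite strand in the 500 bp upstream was present at 62.2% of the members and 27.4% of all genes. Of all genes with such a start, 73.7% to 90.2% had a pooled summit, depending on the distance between the starts. The shares over the pooled and replicate lists were not split by this arrangement. The genes with no summit in the pooled list were kto, MED9, MED14, MED15 and Taf12L.

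The replicates gave similar counts from partly different genes. Among the 3707 top-ranked regions of replicate 2, 19 of the 45 genes had one, or 42.2%, beside 22.6% of all genes. Among those of replicate 3 it was 17 of 45, or 37.8%, beside 22.4%. Both replicates shared 15 genes, 9 of Mediator and 6 of TFIID, while 4 were found in replicate 2 alone and 2 in replicate 3 alone. The genes in replicate 2 alone were MED28, MED8, MED25 and Taf9, and those in replicate 3 alone were MED19 and CycC. The shared genes were 33.3% of the members, beside 18.4% of all protein-coding genes. Over all genes 2566 were shared, of 3150 in replicate 2 and 3124 in replicate 3. A partial overlap of the replicates is thus not particular to the members. For the 18 genes with a thresholded region the strongest promoter summits of the replicates lay a median of 28 bp apart, at most 156 bp, and within 50 bp in 13 genes. The thresholded set was chosen for reproducibility between these same replicates, which favours close summits. The distances are therefore a description and no measure of agreement, and none over all genes is given beside them. Both replicate lists share 1 control alignment, whose part in the overlap and the distances was not tested.

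The testis-type TAF genes had few summits in any list. None of nht, can, mia, sa and Taf12L had a summit in the thresholded set, the pooled list or replicate 2. In replicate 3 only mia had one, at 405 bp downstream of a start, with a signal of 19.3 and rank 15843. Of their general relatives, Taf4, Taf5 and Taf6 had thresholded regions of 285.3, 214.0 and 129.3, and Taf8 and Taf12 had pooled summits of 79.7 and 49.8. In whole animals a region bound in few cells and one bound weakly in many cannot be told apart. Of 9 genes of tMAC, the testis complex that acts with these TAFs, 1 had a thresholded region, or 11.1%, beside 22.9% of all genes. Of the 6 tMAC genes with no protein-coding start on the opposite strand in the 500 bp upstream, 0 had one, beside 13.6% of all such genes, so the count lies near its background. The gene with a region was mip40, with 200.6, and the start of Tab2 lies 333 bp upstream of it on the opposite strand. The starts of Taf12L and sa are printed as examples without a region, on dm6 from 100 bases before the start to the 11th transcribed base, with the forkhead pattern in capitals.
Taf12L, chr2L:4701475-4701585, minus strand: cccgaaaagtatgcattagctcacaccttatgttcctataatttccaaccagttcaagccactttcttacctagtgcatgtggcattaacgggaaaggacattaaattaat
sa, chr3L:21406728-21406838, minus strand: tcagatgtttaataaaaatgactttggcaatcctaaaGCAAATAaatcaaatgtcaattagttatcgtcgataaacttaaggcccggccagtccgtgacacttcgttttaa

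A forkhead match thus stood near the sa start where no list held a summit. The 5 testis-type genes also differed in their surroundings, since none had a protein-coding start on the opposite strand in the 500 bp upstream. Of all protein-coding genes without such a start 13.6% had a thresholded region. The Wilson interval for 0 of 5, 0 to 43.4, holds that share, so the testis-type count was not distinct from its background.

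That arrangement, called a divergent neighbour here, was common among the members. It was present at 28 of the 45 genes, or 62.2%, beside 27.4% of all protein-coding genes. Mediator had 19 of 29 and TFIID 9 of 15. Of the members with a divergent neighbour 15 of 28 carried a thresholded region, or 53.6%, and of all protein-coding genes with one, 47.5% did. Of the members without one it was 3 of 17, or 17.6%, beside 13.6% of all such genes. The members' share minus that of all genes was thus 6.0 percentage points with such a neighbour and 4.0 points without, where it was 17.1 points over both classes. Read within the classes, the count of members lay close to its background. The 3 genes without a divergent neighbour were MED4, Taf4 and Taf9.

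**Figure D3:**
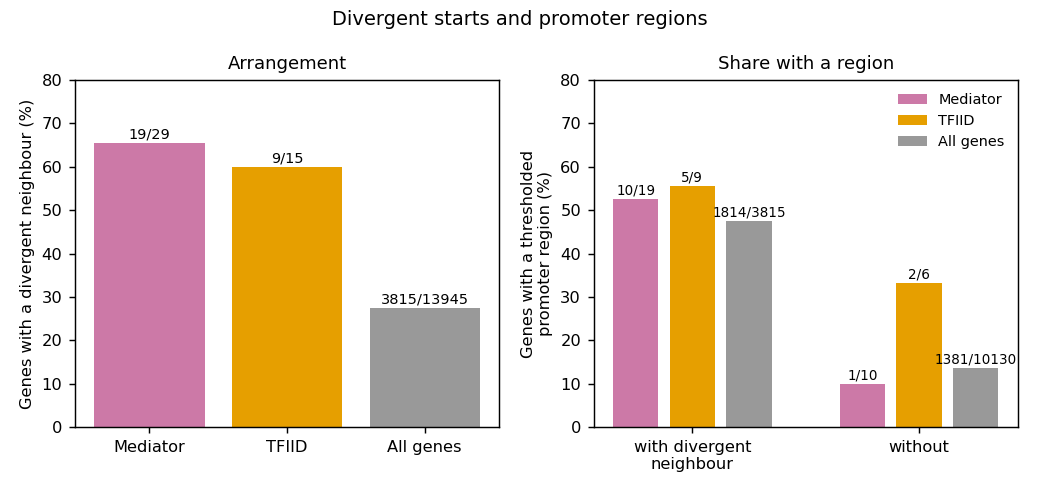
Left, share of genes with a protein-coding start on the opposite strand within 500 bp upstream; right, share with a thresholded promoter region among genes with and without such a neighbour; numbers over the bars are genes. The bars for Mediator, TFIID and all genes are at 52.6%, 55.6% and 47.5% with a neighbour, and at 10%, 33.3% and 13.6% without.

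Because of this arrangement most regions could be assigned to another gene as well. In 15 of the 18 genes the strongest region also lay within 500 bp of the start of another protein-coding gene, or 83.3%, beside 59.6% of all genes with a region. In 12 of them the summit lay between both starts, and in 8 it was nearer to the neighbour. The summit at MED8 lay 456 bp upstream of MED8 and 8 bp from CG8929. That at Taf6 lay 231 bp from Taf6 and 102 bp from ash1, a histone methyltransferase gene of the trithorax group. The Taf5 summit lay 225 bp from Taf5 and 76 bp from the peroxisome gene Pex6. By contrast the MED17 summit lay 100 bp from its own start and 265 bp from that of CG12321, and MED7 had 68 bp beside 210 bp to Cap-H2, a condensin subunit gene. When each summit was given to the nearest start only, 11 members remained with a region, or 24.4%, beside 17% of all genes, and TFIID held 3 of 15. The lists cannot tell which gene of such a pair a region belongs to.

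All 18 summits were upstream of the member's nearest start, at a median of 109.5 bp and between 11 and 456 bp. Among all genes with a region 83.4% of the strongest summits were upstream. The median signed position over upstream and downstream summits was -109.5 bp in the members and -98 bp in all genes. Of the members 13 had the summit within 150 bp of the start, or 72.2%, beside 61.8% of all. A single start was annotated for 38 of the 45 genes, or 84.4%, beside 73.5% of all genes. Among genes with a single start 15 of 38 members had a region, or 39.5%, beside 18.1% of all. These shares were not split by divergent neighbour, which 62.2% of the members and 27.4% of all genes had. Among genes with a summit in the pooled list, whatever their number of starts, 18 of 40 members had a thresholded region. That was 45%, beside 39.8% of all such genes.

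**Figure D4:**
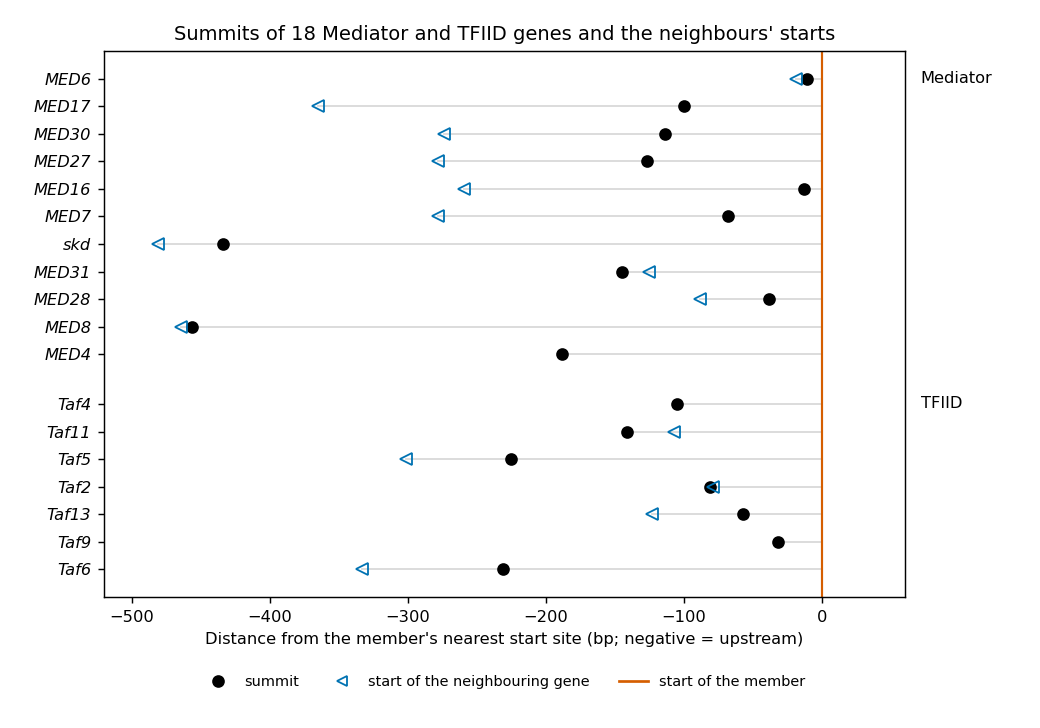
Position of the strongest thresholded summit (black) of each of the 18 genes relative to its nearest start (line at 0) and of the start of the neighbouring protein-coding gene (open triangles), in bp, with negative values upstream. All summits lie between 11 and 456 bp upstream, and those of Taf2, MED6, MED8, MED31, Taf11 and skd lie within 47 bp of the neighbour's start.

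Sequence patterns were counted in windows of 101 bp centred on the summits. Within 50 bp of the summit, 5 of 18 members held the forkhead pattern, or 27.8% (12.5 to 50.9), beside 31.9% of all 2542 thresholded promoter summits and 23.3% of windows of the same 101 bp at all protein-coding starts. The 5 were MED27, MED7, skd, MED4 and Taf11. The same letters reversed, AYAAAYR, occurred in 6, or 33.3%, beside 28.3% of promoter summits. These patterns can overlap, and the same 5 genes held both. TATCGATA occurred at MED28 and MED8 (11.1%, beside 5.51%). TATAAA occurred at MED17, Taf11 and Taf5 (16.7%, beside 17.1%), CACGTG at none (beside 1.14%) and GGTCACAC, the core of Ohler motif 1, at none (beside 2.75%). For each pattern the members' Wilson interval held the share of all promoter summits, so no difference was detectable with 18 summits in this window. In windows of 201 bp the forkhead pattern was at 16 of 18 member summits, or 88.9%, beside 53.4% of all, and the reversed letters were at 66.7%, beside 48.5%. The forkhead share thus depends on the window, and the difference at 201 bp was not tested.

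The promoters of all 45 genes, read from 250 bases before to 50 after the canonical start, held some patterns more often. GGTCACAC was present in 12, or 26.7% (16 to 41), beside 7.54% of all protein-coding genes, and TATCGATA in 10, or 22.2% (12.5 to 36.3), beside 8.94%. Both patterns are core promoter elements of broadly expressed fly genes. The forkhead pattern was present in 32, or 71.1%, beside 62.7% of all. Neither GGTCACAC nor TATCGATA was present in the promoters of the 5 testis-type genes. The interval for each count of 0 of 5, 0 to 43.4, holds the share of all genes, so no difference from all genes was detectable.

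Other parts of the same machinery carried regions as well. Of 18 general factor genes, for TFIIA, TFIIB, TFIIE, TFIIF and TFIIH, 12 had a thresholded region, or 66.7% (43.7 to 83.7), beside 22.9% of all protein-coding genes. They were led by Ssl1 with 843.1, a core subunit of TFIIH whose start lies 105 bp from that of Chro, then TfIIA-S with 457.3, mrn with 202.6 and Cdk7 with 193.2. Of 12 RNA polymerase II subunit genes 7 had one, or 58.3% (32 to 80.7), beside the same 22.9%, led by Polr2B with 476.7, Polr2F with 370.8, Polr2A with 216.9 and Polr2J with 185.3. Of the TBP relatives Trf2 had a region, with 194.2, while Trf shared 1 pooled summit of 43.9 with MED20, whose start lies 47 bp away on the other strand. The Mediator gene ix (MED29), which the symbol rule misses, had a pooled signal of 51.2 and rank 12538. These groups have divergent neighbours at like shares, 61.1% of general factor genes and 58.3% of polymerase genes. Of those with such a neighbour 9 of 11 general factor genes had a region, or 81.8%, and 6 of 7 polymerase genes, or 85.7%, beside 53.6% of the Mediator and TFIID genes and 47.5% of all genes. Whether their shares of regions differ from those of Mediator and TFIID was not tested.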

How the data were processed

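Chromatin of whole adult flies was immunoprecipitated after sonication to 200 to 800 bp, per the labels. Per the deposited file descriptions, each replicate list was derived by the authors from that replicate and 1 control alignment, the pooled list from both replicates, and the thresholded set by irreproducible discovery rate. No source used here names the aligner or the caller. The deposited signal column, whose scaling is not stated, served only to rank and describe regions within a list. The 4 dm6 lists were used; the dm3 lists were not analysed here. Region ends fit the Release 6 sequence, which was used with the Ensembl release 115 annotation.

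All summits were assigned to every gene with a start within 500 bp, with Python 3.11.15 and SciPy 1.17.1; the assignment was tested on simulated summits. Top-ranked means the 3707 regions of highest signal in a replicate, and overlap at least 1 bp. Shares have 95% Wilson intervals. Motifs were searched on both strands. Of the names written out for the comparison lists, MED29 and Tfb2 were matched through older symbols to ix and mrn. Depth is unknown and limits precision. Genes are not replicates.

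The members and lists were chosen with earlier results of these data known. All members are named. The divergent classes, their spacing and the splits by motif were added after the values were seen. Alternatives changed the distance, the starts, the assignment, the list, the signal threshold and the motif window.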

Additional observations from a re-analysis of the deposited data

How the results depend on the processing

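Of 64 alternative values 49 stayed close to the main ones, with counts within 1.5 times and motif shares within the Wilson interval. With either replicate left out, the count of members was 17 to 19, of Mediator genes 11 to 12, of TFIID genes 6 to 7, of testis-type TAF genes 0 to 0 and of all genes 3124 to 3150. With each summit given to the nearest start only, the members numbered 11 and the TFIID genes 3. With the 1853 regions of highest signal there were 10 members, 6 Mediator genes and 4 TFIID genes, beside 1908 of all genes (22.2% of members and 13.7% of all). With the whole pooled list there were 40 members, 25 Mediator genes and 15 TFIID genes, beside 8030 of all genes. The testis-type count was 0 under every alternative run. Alternatives that only narrow the set or the window could not move a value that began at 0, and such values are among the 49. The whole list of replicate 3, which held a summit at mia, was not among the alternatives. The forkhead share was 11.1% with 25 bp on each side of the summit and 88.9% with 100 bp, the reversed letters 5.56% and 66.7%, and the TATA share 5.56% with 25 bp. Over all thresholded promoter summits the forkhead share was 17.5% with 25 bp and 53.4% with 100 bp, and the cause of the larger move among the members was not tested. No paired analysis was possible because there is 1 group. Depth is unknown, so a summit missing from a list does not show that binding was absent.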

Other observations

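The values here fall outside the comparisons above and are given without a test. The distance between divergent starts differed among the members. Where the member carried a thresholded region the starts lay a median of 274 bp apart (15 genes), and where it did not, 71 bp (13 genes). Over all protein-coding genes with a divergent neighbour the medians were 251 bp with a region and 233 bp without. Of 11 members with starts at most 100 bp apart 3 had a thresholded region, or 27.3%, beside 44.2% of 833 such genes, and all 11 had a summit in the pooled list. The 3 genes were MED6, MED28 and Taf2. Taf10 and Taf10b, which share a pooled summit, both count among the 11. In the wider spacings, with 5 or 7 members each, the members' shares lay above those of all genes. No intervals were made, and counts this small cannot show that the direction changes with spacing. At 101 to 200 bp 3 of 5 members had a region, or 60%, beside 38.1% of all such genes. At 201 to 300 bp it was 4 of 5, or 80%, beside 56.6%, and at 301 to 500 bp 5 of 7, or 71.4%, beside 47.4%.

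GGTCACAC, frequent in the promoters of the members, stood beside a lower share of regions among them and a higher share among all genes. The members' shares rest on 12 and 33 genes without an interval or test, so they cannot show that the direction differs. Of the 12 members with it 3 had a thresholded region, or 25%, namely MED8, Taf4 and Taf5, and of the 33 without it 15, or 45.5%. Over all protein-coding genes the shares were 33.5% with the pattern and 22% without. Of the 22 members with a pooled summit below the threshold, 4 held it within 50 bp of that summit, or 18.2%, namely MED10, MED20, MED23 and Taf1. Of all 7761 pooled promoter summits that did not pass, 2.68% held it. The sets are unlike, since the members give 1 summit per gene and the other share is over summits. The pattern was already more frequent in the members' promoters, at 26.7% beside 7.54%, so the contrast is not particular to these summits.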
